A study of Mus musculus with 4 samples.

Results

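The forkhead transcription factors of the mouse were followed in embryonic fibroblasts (MEFs) that lack the DNA glycosylase MBD4. Members were taken by name from the table of 23537 genes, as every gene whose symbol is Fox followed by a letter from a to s and a number, which gave 35 genes. Primary MEFs, connective tissue cells grown out of C57BL/6 embryos at day 12.5 post coitum, came from *Mbd4*+/+ (WT) and *Mbd4*-/- (KO) mice and were subconfluent when RNA was taken. There were 2 libraries per genotype, each from total RNA freed of ribosomal RNA, with 39108275 to 47567835 counted reads a library. The study calls its samples independent but gives no number of embryos or cultures behind them, and the p-values therefore rest on a spread between samples that may be technical. The sources used here do not describe the *Mbd4* allele, and any effect of MEF isolation or culture that differs between the mouse lines cannot be told apart from genotype.

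Forkhead proteins bind DNA through a winged helix domain, whose recognition helix enters the major groove of a short AT-rich site. Some of them open closed chromatin for other factors, others act as repressors, and several lay down mesenchyme, endoderm or neural tissue in the embryo. FOXO proteins are held out of the nucleus when insulin signalling is active, FOXM1 drives the genes of mitosis, and FOXC, FOXD and FOXF factors act in the mesenchyme of different body sites. The comparison of KO with WT asks which of these factors differ in level without MBD4.

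*Mbd4* itself gave 373 and 302 reads in KO and 663 and 630 in WT, a log2 fold change (KO over WT) of -0.99 ± 0.11 (SE, n = 2 per genotype, adjusted p = 2.8e-06 in edgeR's quasi-likelihood test). The libraries labelled KO thus still held reads of the gene, and the table sums them over the whole gene. Fibroblast markers were present throughout, but the matrix genes of the list were lower in the KO libraries. Of 12 fibroblast markers tested, 7 (58.3%) were lower and 1 (8.33%) higher, beside 32.5% and 34.3% of all genes tested. Their summed level was 13300 and 14400 CPM (reads of a gene relative to the depth of its library) in KO against 23500 and 21100 in WT. *Dcn* and *Lum* were nearly absent from the KO libraries (5 and 7 reads, and 0 and 1 read) but not from the WT libraries, where *Dcn* gave 1349 and 1123 reads and *Lum* 142 and 131. In bulk RNA, fewer cells of a type and less RNA per cell cannot be told apart.

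Of the 35 forkhead genes, 27 passed the filter on low counts and were tested, and 8 had at most 7 reads in any library. At an adjusted p of 0.05, adjusted over all 15538 genes tested, 13 of the 27 were higher in KO MEFs, 8 were lower and 6 did not pass. Without KO replicate 2 fewer forkhead genes passed as higher, and fewer genes of the whole table did too. The median log2 fold change of the 27 was then -0.08, against 0.12 with all libraries (0.02 for all genes in each fit). With all libraries, 34.3% of all genes passed as higher and 32.5% as lower, so 66.8% passed in all. A forkhead gene past this threshold was thus in the majority of the transcriptome. When libraries were scaled by their totals instead of by TMM, the log2 fold change of the median gene moved from 0.02 to 0.17, the share of higher genes among all calls from 51.4% to 62.6%, and the forkhead genes to 13 higher and 6 lower. The study sets its limits for genes at 0.01 for p, taken here as adjusted, and at 2 for the size of the log2 fold change, and 4 forkhead genes were past both, against 8.94% of all genes. *Foxe1* and *Foxo6* passed as higher (5.79% of all genes did), and *Foxs1* and *Foxq1* as lower (3.15%). The count of 4 fell to 2 without WT replicate 1 and with at least 10 counts in every library. The genotypes did not overlap, both KO libraries being above or both below the WT pair, for 23 of the 27, against 82.8% of all genes tested. The median absolute log2 fold change was 0.55 for the 27 and 0.47 for all genes. *Foxe1* and *Foxo6* passed the filter through the KO libraries alone, and *Foxj1* and *Foxl1* through the WT libraries alone, while the other 23 passed it in both genotypes.

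**Figure D1:**
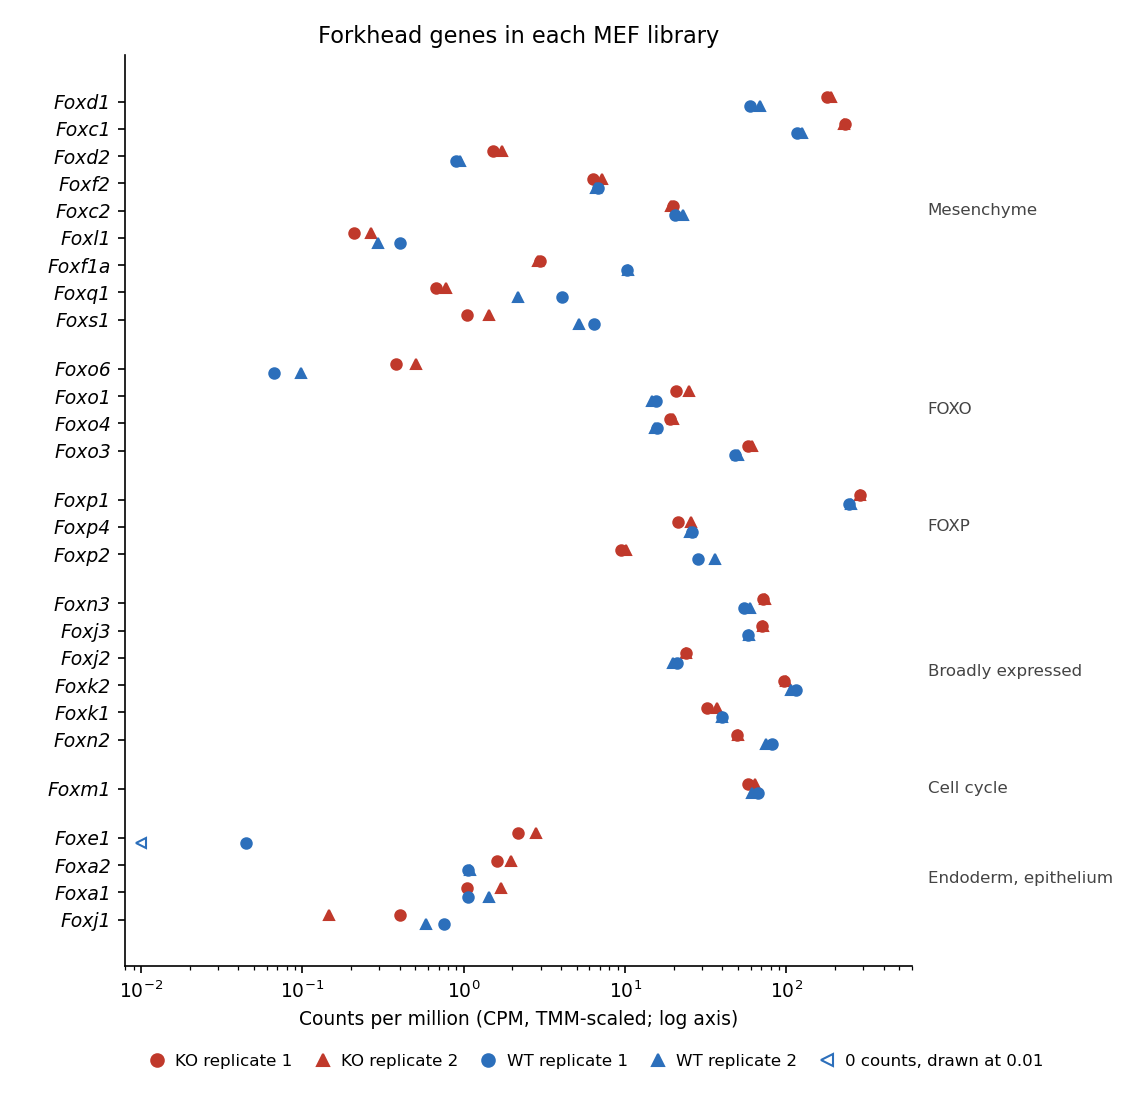
Level of each of the 27 tested forkhead genes in the 4 libraries, in TMM-scaled CPM on a log axis, grouped by role, with KO in red and WT in blue and 1 point per library. *Foxd1* and *Foxc1* sit at 178 to 229 CPM in KO and 59.3 to 124 in WT, while *Foxe1* has 0 and 2 reads in the WT libraries.

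**Figure D2:**
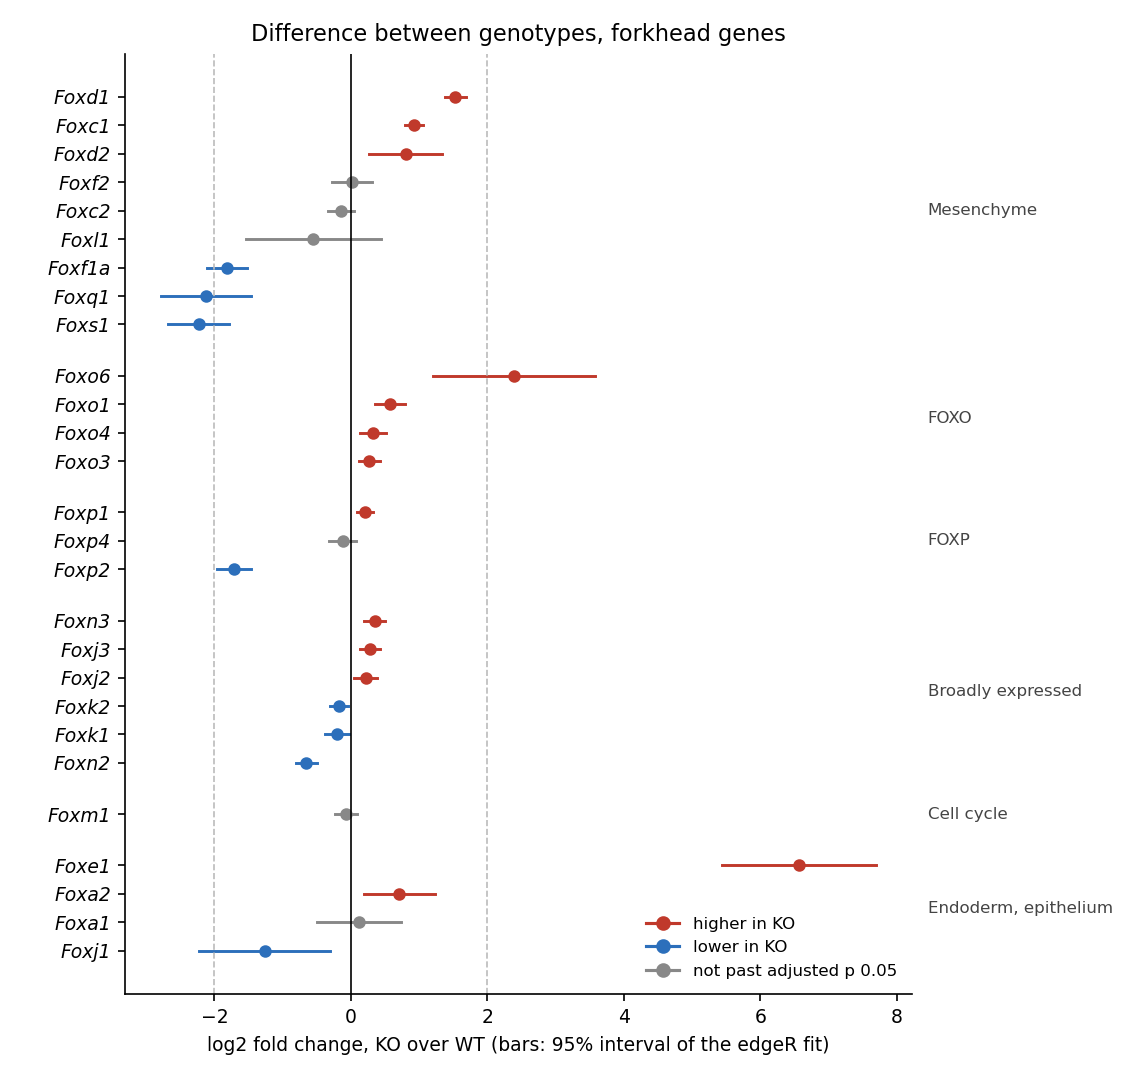
log2 fold change (KO over WT) of the 27 tested forkhead genes with 95% intervals of the edgeR fit, grouped by role, red for higher, blue for lower and grey for not past an adjusted p of 0.05, with dashed lines at -2 and 2. The FOXO genes lie right of 0 from 0.27 to 2.39, the mesenchymal genes run from -2.23 to 1.53, and *Foxe1* stands apart at 6.57.

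The forkhead genes grouped here as mesenchymal held the members with the highest level per length. Of the 9 tested, 3 (33.3%) were higher in KO, 3 (33.3%) lower and 3 did not pass, beside 34.3% higher and 32.5% lower of all genes. *Foxd1*, which marks the stroma of the developing kidney and has 1 exon on the plus strand of chromosome 13 (99124200 to 99126660, mm9), was at 178 and 190 CPM in KO and at 59.3 and 68.1 in WT. Its log2 fold change was 1.53 ± 0.07 (SE, adjusted p = 6.6e-10), or 2.89-fold. *Foxc1*, which acts in cranial mesenchyme, meninges and blood vessels, was at 229 and 226 CPM in KO and at 116 and 124 in WT, with a log2 fold change of 0.93 ± 0.06 (adjusted p = 1.5e-08). For both genes every KO library lay far above every WT library. *Foxd2*, a kidney and cranial mesenchyme gene, was low but moved the same way, with 72 and 71 reads in KO and 40 and 39 in WT and a log2 fold change of 0.81 ± 0.25 (adjusted p = 0.011). This last call was lost without KO replicate 2 (log2 0.71, adjusted p = 0.10) and in DESeq2 (adjusted p = 0.085).

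Per kilobase of annotated exon (RPKM), *Foxd1* and *Foxc1* were the leading pair of the family in both genotypes. This order depends on the division by length. In CPM *Foxp1* stood above both, at a mean of 286 in KO and 247 in WT, and in WT *Foxk2* (111) stood above *Foxd1* (63.7). *Foxd1* was at 74.8 ± 3.38 RPKM (SD, n = 2) in KO and 25.9 ± 2.52 in WT, and *Foxc1* at 57.0 ± 0.52 and 30.0 ± 1.42, so that the first place belonged to *Foxd1* in KO and to *Foxc1* in WT. In WT the gap between these means was larger than either SD. *Foxn3*, *Foxp1* and *Foxk2* followed in KO at 25.7, 23.9 and 17.6 RPKM, and in WT *Foxp1*, *Foxn3* and *Foxk2* at 20.7, 20.1 and 19.9, where the 3 lie within about 1 SD of each other. The family summed to 268 and 278 RPKM in KO and to 200 and 204 in WT. *Foxc1* and *Foxd1* together gave 130 and 134 of these in KO and 53.1 and 58.7 in WT, which is 48.5% and 48.1% of the forkhead sum in KO and 26.6% and 28.8% in WT. The other 33 genes summed to 138 and 145 RPKM in KO and to 147 and 145 in WT. The pair set aside was chosen by its level in these data. The sum of the others also hides opposite changes, such as *Foxn3* (25.7 RPKM in KO, 20.1 in WT) and *Foxf1a* (2.4 in KO, 8.48 in WT).

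**Figure D3:**
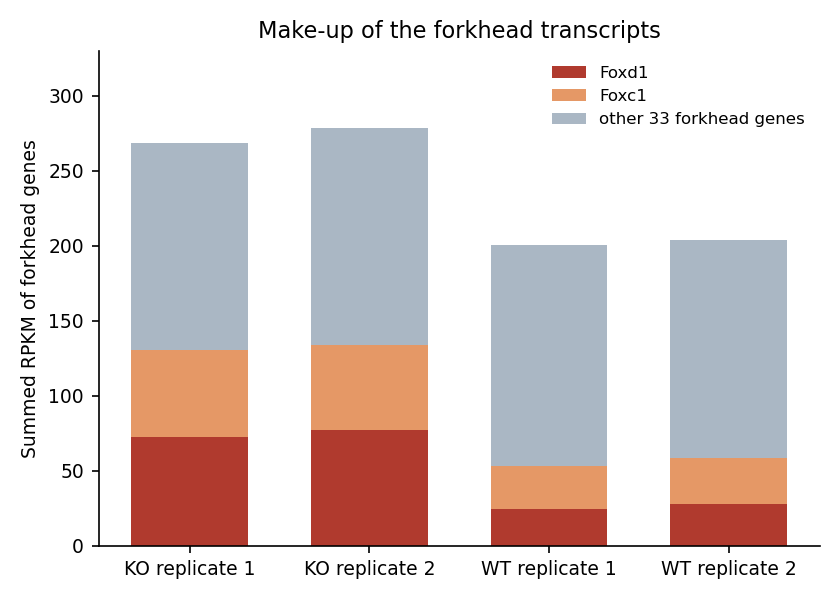
Summed RPKM of the 35 forkhead genes in each library, with *Foxd1*, *Foxc1* and the other 33 genes stacked on an axis from 0. The 2 KO bars reach 268 and 278 and the 2 WT bars 200 and 204, and the grey part is 138 to 147 in all 4.

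The coding bases of the DNA recognition helix were compared between members. The counts of unlike bases include changes that keep the amino acid, and the proteins themselves were not compared. *Foxd1* and *Foxc1*, the leading pair per kilobase, are printed here with 4 other members that had a large difference and a stretch within 1 exon. *Foxn2* is printed as a member with more bases unlike *Foxd1*. Each stretch was found in the annotated coding transcripts by its protein pattern and read from mm9, 5′ to 3′ on the coding strand, and capitals mark bases unlike *Foxd1*.
*Foxd1*, chr13:99125094-99125123, plus strand: tggcagaacagcatccgtcacaacctgtcg
*Foxc1*, chr13:31899440-31899469, plus strand: tggcagaacagcatAcgGcacaacctCtcg
*Foxe1*, chr4:46357360-46357389, plus strand: tggcagaacagcatccgCcacaacctCAcC
*Foxs1*, chr2:152758655-152758684, minus strand: tggcaAaacagcatccgCcaTaacctgtcT
*Foxf1a*, chr8:123608572-123608601, plus strand: tggAagaacTCcGtGcgCcacaacctgtcg
*Foxq1*, chr13:31651260-31651289, plus strand: tggcGCaacTCcGtGcgCcacaacctCtcg
*Foxn2*, chr17:88862532-88862561, plus strand: tggAagaaTTCTGtTcgGcaTaaTctAtcC

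The stretch of 30 bases was found in 29 of the 35 genes. *Foxc1* differed from *Foxd1* at 3 of its bases, *Foxe1* and *Foxs1* at 4, *Foxf1a* at 6, *Foxq1* at 8 and *Foxn2* at 12, within a range of 2 to 13 over the members. Genes within 4 coding bases of *Foxd1* in this stretch thus stood on both sides of the comparison, *Foxc1* and *Foxe1* as higher and *Foxs1* as lower in KO. Over the whole annotated transcripts no 50-base stretch, the read length of the study, of *Foxd1*, *Foxe1*, *Foxf1a* or *Foxs1* occurred in protein-coding transcripts of another gene. *Foxc1* and *Foxc2* shared 4 such stretches, 0.101% of those of *Foxc1*.

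At the lower end of the genes grouped here as mesenchymal stood *Foxs1*, *Foxq1* and *Foxf1a*. *Foxs1*, known from pericytes and sensory neurons, is a gene of 1 exon on the minus strand of chromosome 2 (152757634 to 152758944, mm9). It gave 50 and 59 reads in KO and 288 and 212 in WT, a log2 fold change of -2.23 ± 0.21 (adjusted p = 4.7e-07). *Foxf1a*, which acts in the mesenchyme of lung and gut under Hedgehog signals, gave 142 and 119 reads in KO and 461 and 427 in WT, a log2 fold change of -1.82 ± 0.14 (adjusted p = 6.7e-08), and was 3.52-fold higher in WT. The KO and WT libraries of both genes were far apart. *Foxq1* was placed in this group by assignment, though it is known from hair and the stomach surface. It gave 32 reads in each KO library and 183 and 89 in WT. Its log2 fold change was -2.12 ± 0.31 (adjusted p = 3.6e-05). The WT libraries of *Foxq1* lay apart from each other, at 4.09 and 2.17 CPM, though both above the KO libraries at 0.673 and 0.776, and without WT replicate 1 the log2 fold change was -1.59 (adjusted p = 1.6e-07), short of the limit of 2.

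*Foxq1* reads are uncertain for another reason. Of its 2801 exon bases on the plus strand of chromosome 13 (31650039 to 31652839, mm9), 1164 (41.6%) lie in exons of *A530084C06Rik*, which runs on the opposite strand, and the sources used here do not give whether strand was used in the counting. *A530084C06Rik* gave 12 and 7 reads in KO and 103 and 91 in WT (log2 -3.39 ± 0.31, adjusted p = 4.6e-07). Both partners were thus lower in KO, and without strand the reads from the shared bases cannot be told apart.

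Markers of mural cells did not move as a block with *Foxs1*. Of 8 pericyte and mural markers tested, 5 (62.5%) were higher in KO and 2 (25%) lower, beside 34.3% and 32.5% of all genes. Their sum was 235 and 245 CPM in KO against 436 and 397 in WT, set by *Mcam* (42.4 CPM in KO and 215 in WT) and *Cspg4* (168 and 192). *Rgs5* and *Kcnj8*, which define pericytes, were higher in KO at log2 2.57 ± 0.17 and 5.08 ± 0.47 (adjusted p = 1.6e-08 and 4.9e-07). Their part in the *Foxs1* result was not tested. Of 8 endothelial markers 5 were tested, at adjusted p of 0.13 to 0.27, with a sum of 3.35 to 3.95 CPM over the 4 libraries and 0 reads of *Cdh5* in KO.

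*Foxf2*, *Foxc2* and *Foxl1* did not pass. *Foxf2*, which acts in gut and palate mesenchyme and in brain pericytes, gave 301 and 297 reads in KO and 304 and 269 in WT, with a 95% interval of the log2 fold change from -0.27 to 0.31. *Foxc2*, a factor of somites and lymphatic vessels, was at 19.7 and 19.3 CPM in KO and 20.3 and 22.8 in WT, with an interval from -0.34 to 0.05, but without WT replicate 1 it passed as lower (log2 -0.23, adjusted p = 0.036). *Foxl1*, which marks cells beneath the gut epithelium, gave 10 and 11 reads in KO and 18 and 12 in WT, with an interval from -1.54 to 0.44 that leaves room for a change of either sign. *Foxl2*, which keeps the identity of ovarian granulosa cells, was silent with 4 and 1 reads in KO and 0 in both WT libraries, and it was not tested.

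Members of this group lie in clusters of the genome in which neighbours had unlike calls. On chromosome 8 (mm9, plus strand) *Foxf1a* (123608286 to 123610851) is followed 31.8 kb on by *Foxc2* (123640071 to 123642792) and 11.8 kb further by *Foxl1*. Of this cluster *Foxf1a* alone passed, at log2 -1.82, while the intervals of *Foxc2* and *Foxl1* held 0. The interval of *Foxl1* (-1.54 to 0.44) meets that of *Foxf1a* (-2.11 to -1.52) at its edge, and a difference between these genes was not tested. On chromosome 13 *Foxq1* is followed 67.6 kb on by *Foxf2* (31717685 to 31723272) and 180.8 kb further by *Foxc1* (31898515 to 31902504). Along this stretch the log2 fold change went from -2.12 over 0.02 to 0.93, with intervals of -2.78 to -1.46, -0.27 to 0.31 and 0.80 to 1.06 that do not meet.

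**Figure D4:**
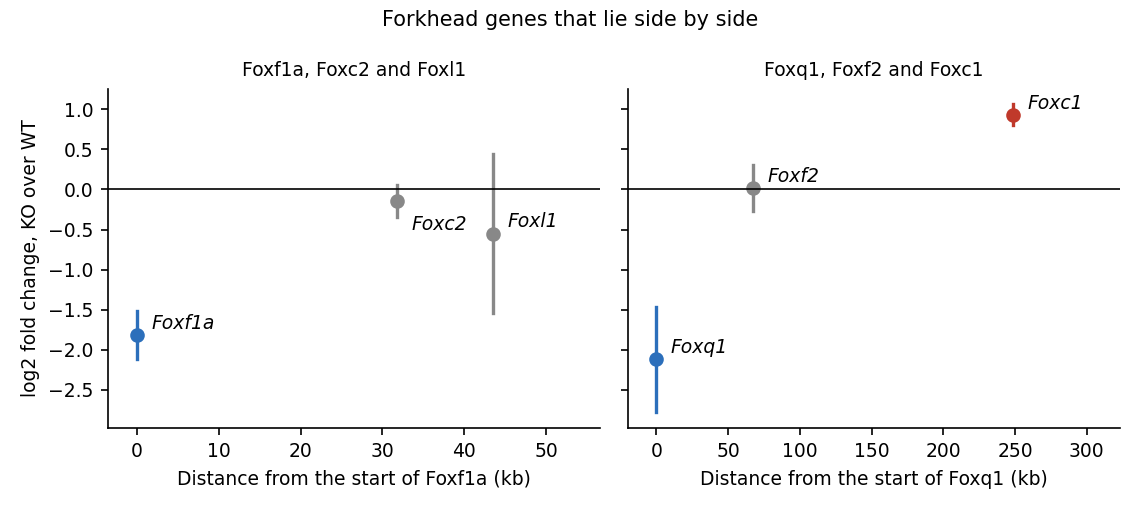
log2 fold change (KO over WT) against distance in kb from the first gene of each cluster, with 95% intervals as bars, red for higher, blue for lower and grey for not past an adjusted p of 0.05. In the left cluster *Foxf1a* stands at -1.82 with *Foxc2* at -0.14 and *Foxl1* at -0.55, and in the right cluster *Foxq1*, *Foxf2* and *Foxc1* stand at -2.12, 0.02 and 0.93.

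The factors of endoderm and epithelium were low in WT MEFs, the tested ones with at most 59 reads in a WT library, and *Foxe1* was the member with the largest ratio. *Foxe1*, needed for the thyroid and the palate, is a gene of 1 exon on the plus strand of chromosome 4 (46356481 to 46359284). It gave 103 and 116 reads in KO and 2 and 0 in WT, a ratio of 106 by depth with an exact 95% interval of 28.9 to 879 for counting error only. The fitted log2 fold change was 6.57 ± 0.52 (adjusted p = 1.1e-07), and it depends on so few WT reads that without WT replicate 1, which held both of them, the fit gave 9.74, which is no bound. The level in KO stayed low for the family at 0.888 ± 0.163 RPKM (SD, n = 2), place 19 of 35.

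*Gm12446*, a gene on the opposite strand whose exons cover 102 bases of the *Foxe1* exon, was also higher in KO. It gave 24 and 19 reads in KO and 0 in both WT libraries. This was at least 13.8-fold higher in KO against a floor of 3 reads over the WT group (adjusted p = 5.0e-05). Like *Foxe1*, *Gm12446* passed the filter on low counts through the KO libraries alone, at 0.505 and 0.461 CPM. As for *Foxq1*, it is unknown whether reads were split by strand. Reads from the bases shared by *Gm12446* and *Foxe1* therefore cannot be assigned to either gene. Next along, *Gm12447* gave 5 and 8 reads in KO and 1 and 0 in WT and was not tested, and *5830415F09Rik*, whose start lies 45828 bases from that of *Foxe1*, did not pass (log2 0.19 ± 0.13, adjusted p = 0.20). Around *Foxq1* and *Foxs1*, *1700018A04Rik*, *Dusp15*, *Mylk2* and *Ttll9* had at most 8 reads in any library and were not tested, and no other gene of the table starts within 50 kb of *Foxo6*.

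Other thyroid and pharyngeal genes moved beside *Foxe1*. Of 6 markers with reads, 5 were tested. Of the 5 tested, 4 (80%) were higher in KO and 1 (20%) lower, beside 34.3% and 32.5% of all genes. The sum over the 6 was 178 and 193 CPM in KO against 109 and 133 in WT. *Pax8* made up nearly all of it at 181 CPM in KO and 119 in WT, a log2 fold change of 0.60 ± 0.08 (adjusted p = 2.7e-05). *Nkx2-1* gave 41 and 53 reads in KO and 15 and 6 in WT, *Tg* 96 and 77 against 42 and 28, and *Hhex* 59 and 78 against 19 and 16. The iodide transporter gene *Slc5a5* was lower in KO (log2 -1.35 ± 0.55, adjusted p = 0.044). Of 8 epithelial and endodermal markers in the table, 4 were tested, with 1 higher (*Cdh1*, 142 and 107 reads in KO, 10 and 9 in WT) and 2 lower, among them *Krt19* with 12 and 14 reads in KO and 1229 and 1114 in WT. The sum of this list was 14.6 and 15.2 CPM in KO and 44.0 and 43.1 in WT, and *Krt18* and *Gata4* had 0 reads in KO. The part of these markers in the *Foxe1* result was not tested.

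*Foxa2*, which sets up endoderm and floor plate, gave 76 and 81 reads in KO and 48 and 45 in WT (log2 0.71 ± 0.24, adjusted p = 0.018), a call lost without KO replicate 2 (log2 0.56, adjusted p = 0.18) and in DESeq2 (adjusted p = 0.11). *Foxa1*, which opens chromatin in endoderm, gave 50 and 70 reads in KO and 48 and 59 in WT, with overlapping groups and an interval from -0.49 to 0.74. *Foxj1*, the master regulator of motile cilia, gave 19 and 6 reads in KO and 34 and 24 in WT. Its log2 fold change of -1.26 ± 0.44 (adjusted p = 0.022) was not past the threshold without KO replicate 2 (log2 -0.75, adjusted p = 0.25), without WT replicate 1 (log2 -1.06, adjusted p = 0.078) or in DESeq2 (adjusted p = 0.10), and was -2.19 without KO replicate 1. Both motile cilium markers that could be tested, *Ccdc39* and *Rsph1*, were higher in KO, the opposite direction to *Foxj1*, beside 34.3% of all genes. Their log2 fold changes were 1.91 ± 0.18 and 2.33 ± 0.49 (adjusted p = 4.6e-07 and 8.3e-04). The list summed to 10.4 and 8.42 CPM in KO and 2.19 and 2.76 in WT, and its part in the *Foxj1* result was not tested.

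The other silent members described here belong to tissues far from a fibroblast. *Foxa3* of liver and gut gave 1 and 0 reads in KO and 1 and 3 in WT, *Foxn1* of the thymic epithelium 3 and 5 against 5 and 7, and *Foxr1* 5 and 7 against 7 and 4. *Foxb1* of the diencephalon gave 5 and 1 against 2 and 3. *Foxh1*, the SMAD partner in Nodal signalling, gave 2 and 2 against 0 and 0. All of these were under the filter and not tested, and with so few reads a difference would not be detectable at this depth. Neural progenitor markers split, with *Emx2* higher and *Nes* and *Fabp7* lower of 4 tested. Their list summed to 144 and 137 CPM in KO against 428 and 343 in WT. *Nes* made up nearly all of this sum, at 137 and 130 CPM in KO and 426 and 341 in WT. Of 2 neural crest and glial markers tested, 1 was higher and 1 lower. A further 9 forkhead genes of the annotation, among them *Foxd3* and *Foxi1*, were not analysed here.

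All 4 FOXO genes were higher in KO, beside 34.3% of all genes tested. *Foxo1* was at 20.6 and 24.8 CPM in KO and 15.6 and 14.7 in WT, a log2 fold change of 0.58 ± 0.10 (adjusted p = 2.2e-04). *Foxo3*, the most abundant of them, was at 57.8 and 61.0 CPM in KO and 48.1 and 50.2 in WT (log2 0.27 ± 0.07, adjusted p = 0.0034). *Foxo4*, on chromosome X, was at 19.1 and 19.7 CPM in KO and 15.7 and 15.4 in WT (log2 0.32 ± 0.09, adjusted p = 0.0059). In all of these both KO libraries lay above both WT libraries, with fitted folds of 1.49, 1.21 and 1.25. *Foxo6*, a brain-enriched member, was low and passed the filter through the KO libraries alone, with 18 and 21 reads in KO and 3 and 4 in WT (log2 2.39 ± 0.55, adjusted p = 0.0017). Its adjusted p was above 0.01 without KO replicate 1, KO replicate 2 or WT replicate 1 (0.014, 0.041 and 0.012) and in DESeq2 (0.024). All 4 genes stayed higher with each other scaling. Without KO replicate 2, *Foxo3* and *Foxo4* no longer passed (log2 0.23 and 0.30, adjusted p = 0.059 and 0.061). Summed over the 4 genes, the level was 17.4 and 18.8 RPKM in KO and 14.0 and 14.1 in WT.

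Genes upstream of the FOXO proteins went both ways. Of 27 tested, 11 (40.7%) were higher and 12 (44.4%) lower, beside 34.3% and 32.5% of all genes, with a median log2 fold change of -0.10 (0.02 for all genes). The insulin receptor substrates stood highest. *Irs1* was at 562 and 622 CPM in KO and 203 and 223 in WT (log2 1.47 ± 0.07), followed by *Irs2* at log2 1.16, and by the receptor gene *Insr* and the kinase gene *Sgk3*, both at log2 0.61. *Pik3cb*, a catalytic subunit of PI3 kinase, was lowest at log2 -1.24 ± 0.07, and *Sgk1* and *Stk4*, kinases that phosphorylate FOXO proteins, were at log2 -0.95 and -0.91. The 14-3-3 genes, whose proteins hold phosphorylated FOXO in the cytoplasm, were represented by *Ywhaq* at log2 -1.13 and by *Ywhaz*, the most abundant gene of the list, at 472 and 472 CPM in KO and 853 and 800 in WT (log2 -0.81 ± 0.06). Of the 6 such genes in the list 5 were lower, and *Ywhah*, named after its value was seen, was higher at log2 0.43.

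Genes known as FOXO targets also went both ways, with the larger changes upward. Of 31 tested, 14 (45.2%) were higher and 9 (29.0%) lower, beside 34.3% and 32.5% of all genes, and the median log2 fold change was 0.08. *Cdkn1a*, which encodes the cyclin-dependent kinase inhibitor p21, was at 10.1 and 10.5 CPM in KO and 1.79 and 1.10 in WT (log2 2.83 ± 0.19, adjusted p = 2.2e-08). *Klf2*, *Pdk4* and *Sepp1*, a factor of quiescence, a brake on glucose oxidation and a selenium carrier, followed at log2 2.39, 1.99 and 1.90. On the other side stood *Fbxo32*, the ubiquitin ligase atrogin-1, at 12.1 and 11.0 CPM in KO and 52.0 and 42.9 in WT (log2 -2.04 ± 0.10, adjusted p = 1.1e-09), with *Eif4ebp1*, *Klf4* and *Gabarapl1* at log2 -1.32, -0.84 and -0.79. *Rictor*, the most abundant of the list, was at log2 -0.73. *Irs2* and *Insr* are on this list and on the upstream list.

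*Foxm1*, which drives the genes of the G2 and M phases, did not pass. It was at 57.6 and 64.1 CPM in KO and 66.8 and 61.0 in WT, with overlapping groups and a log2 fold change of -0.07 ± 0.08 (adjusted p = 0.42, interval -0.23 to 0.09). Without WT replicate 2 it passed as lower at log2 -0.17 (adjusted p = 0.046). Of its 5498 exon bases 144 lie in exons of *4933413G19Rik* on the same strand, so reads from these bases cannot be assigned to *Foxm1* alone.

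Most of the genes FOXM1 is known to drive were lower in KO. *Foxm1* itself did not pass, and its part in these differences was not tested. Of 34 tested, 28 (82.4%) were lower and 2 (5.88%) higher, beside 32.5% and 34.3% of all genes, and the median log2 fold change was -0.47, beside 0.02 for all genes. *Plk1*, a kinase of mitotic entry, was at 23.1 and 24.3 CPM in KO and 54.1 and 48.9 in WT (log2 -1.12 ± 0.08, adjusted p = 3.5e-08). *Dlgap5*, *Ube2c* and *Cks1b*, which act in spindle assembly, in the destruction of cyclins and with the cyclin-dependent kinases, followed at log2 -0.98, -0.96 and -0.93. *Aurkb* and *Cenpf* passed as higher at log2 0.19 and 0.16 (adjusted p = 0.020 and 0.043), but neither passed in DESeq2 and 0 to 1 genes of the list did when a library was left out. *Top2a*, the most abundant of the list, was at 1050 and 968 CPM in KO and 961 and 975 in WT and did not pass (log2 0.06 ± 0.06, adjusted p = 0.42). The number of lower genes was 26 to 29 in every alternative fit.

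Of the 6 MuvB and B-Myb genes, whose proteins recruit FOXM1 to these targets, 2 were higher, 2 lower and 2 not past. Those higher and those lower were 33.3% each, beside 34.3% and 32.5% of all genes, and the median log2 fold change was 0.14. *Mybl2*, which encodes B-Myb, was at 17.1 and 19.6 CPM in KO and 47.0 and 40.1 in WT (log2 -1.25 ± 0.10, adjusted p = 7.9e-08). *Lin54* was at log2 -0.20, and *Lin37* and *Rbbp4* at 0.44 and 0.31. The smaller of these calls depended on scaling, since library totals gave 4 higher and 1 lower.

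**Figure D5:**
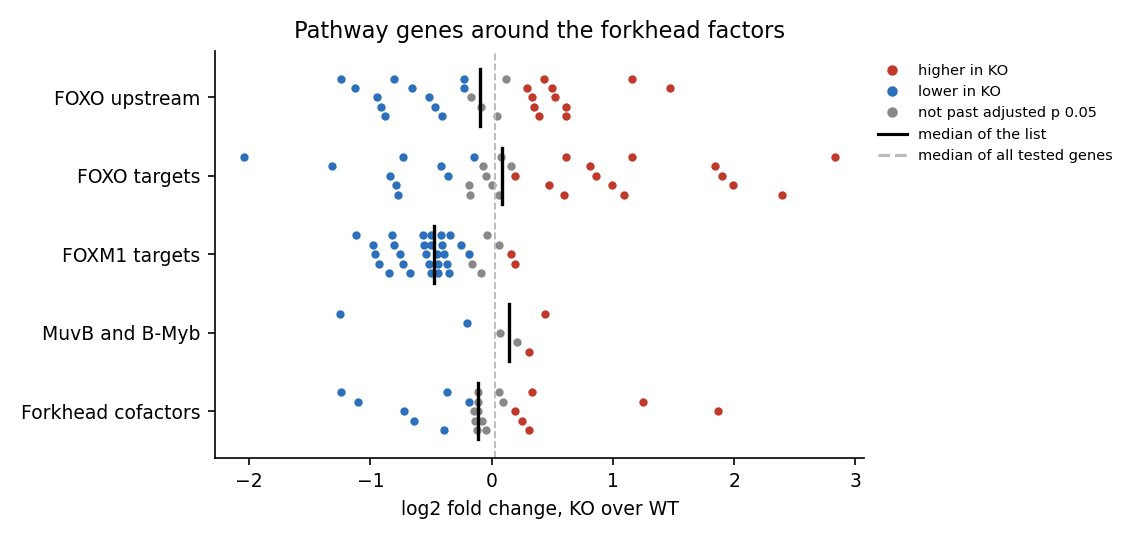
log2 fold change (KO over WT) of each tested gene of the 5 pathway lists, with points shifted up or down only to separate them, red for higher, blue for lower and grey for not past an adjusted p of 0.05. The black bar is the median of a list, at -0.47 for the FOXM1 targets, and the dashed line the median of all tested genes at 0.02.

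In the FOXP subgroup, whose proteins act as repressors, 1 member fell strongly and the abundant one rose slightly. *Foxp2*, known from the circuits of speech, was at 9.43 and 10.2 CPM in KO and 28.3 and 36.1 in WT, a log2 fold change of -1.71 ± 0.12 (adjusted p = 2.0e-08), and was 3.28-fold higher in WT. *Foxp1*, a repressor in heart, lung and B cells, was at 287 and 285 CPM in KO and 243 and 251 in WT (log2 0.21 ± 0.06, adjusted p = 0.0052). *Foxp4*, a lung and gut factor, was at 21.4 and 25.6 CPM in KO and 25.9 and 25.1 in WT, with overlapping groups and an interval from -0.32 to 0.08. *Foxp3*, which defines regulatory T cells, was silent with 1 and 0 reads in each genotype, and *Ptprc*, the leukocyte marker CD45, had 0 and 2 reads in KO and 40 and 21 in WT. Of 3 leukocyte markers tested 1 was higher and 1 lower, and their list summed to 1.44 to 1.76 CPM in all 4 libraries.

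The broadly expressed members differed by little, with 3 of 6 higher and 3 lower (50% each), beside 34.3% and 32.5% of all genes. *Foxn2* was the exception in size, at 49.4 and 50.4 CPM in KO and 81.9 and 74.3 in WT (log2 -0.65 ± 0.07, adjusted p = 2.2e-06). *Foxn3*, a repressor linked to cell cycle checkpoints, was at 71.4 and 73.8 CPM in KO and 54.7 and 59.3 in WT (log2 0.35 ± 0.07, adjusted p = 4.6e-04). *Foxj3* was at 70.5 and 71.4 CPM in KO and 58.0 and 59.0 in WT (log2 0.28 ± 0.06, adjusted p = 0.0016). These 3 kept their calls in every alternative fit.

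*Foxj2*, *Foxk1* and *Foxk2* had small differences whose calls changed with the fit. *Foxj2* was at 23.8 and 23.9 CPM in KO and 21.1 and 19.9 in WT (log2 0.22 ± 0.08, adjusted p = 0.029), and lost its call without KO replicate 1, KO replicate 2 or WT replicate 2 (log2 0.22, 0.22 and 0.14, adjusted p = 0.11, 0.13 and 0.20), in DESeq2 (adjusted p = 0.12), with RLE size factors (0.050) and with no filter on low counts (0.087). *Foxk1*, which binds Sin3 and restrains autophagy genes, was at 32.3 and 36.9 CPM in KO and 39.8 and 40.0 in WT (log2 -0.21 ± 0.08, adjusted p = 0.036), and lost it without KO replicate 1 (log2 -0.11, adjusted p = 0.37). *Foxk2*, a partner of the BAP1 deubiquitinase, was at 96.6 and 99.9 CPM in KO and 115 and 107 in WT (log2 -0.18 ± 0.06, adjusted p = 0.023), and lost it without KO replicate 1, KO replicate 2 or WT replicate 1 (log2 -0.15, -0.20 and -0.12, adjusted p = 0.17, 0.070 and 0.14). With library totals the log2 fold changes of *Foxk1* and *Foxk2* were -0.06 and -0.03, with upper quartile scaling -0.15 and -0.12, and neither gene passed under either.

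Proteins that work with forkhead factors were mixed. Of 23 cofactor genes tested 6 (26.1%) were higher and 7 (30.4%) lower, beside 34.3% and 32.5% of all genes, with a median log2 fold change of -0.11. The Groucho corepressor genes *Tle2*, *Tle4* and *Tle3* were higher at log2 1.87 ± 0.11, 1.25 ± 0.13 and 0.33 ± 0.07, while *Tle1* was lower at log2 -0.39. Higher too was the Dishevelled gene *Dvl2* at log2 0.31, whereas *Dvl1* was lowest at log2 -1.24 ± 0.08. *Gatad2a* of the NuRD complex, *Bap1* and *Sin3b* were at log2 -1.10, -0.72 and -0.64. *Bap1* and *Sin3b* are genes of FOXK partners, and the other Sin3 gene, *Sin3a*, was higher at log2 0.25. *Tle1* and *Sin3a* were named after their values were seen. *Ctnnb1*, the most abundant, did not pass (log2 0.06 ± 0.06, adjusted p = 0.35).

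Since MBD4 acts at CpG sites, the 300 bases before the annotated start of each forkhead gene were read from mm9. The windows are printed for 2 genes that were higher in KO and 2 that were lower, 5′ to 3′ on the strand of the gene, with each CG in capitals.
*Foxd1*, higher in KO, chr13:99123900-99124199, plus strand: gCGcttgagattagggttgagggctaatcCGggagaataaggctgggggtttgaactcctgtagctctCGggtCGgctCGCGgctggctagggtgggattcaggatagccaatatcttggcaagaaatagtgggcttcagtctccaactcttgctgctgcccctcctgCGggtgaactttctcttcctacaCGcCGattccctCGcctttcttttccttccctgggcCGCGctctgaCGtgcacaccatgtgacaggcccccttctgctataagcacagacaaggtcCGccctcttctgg
*Foxe1*, higher in KO, chr4:46356181-46356480, plus strand: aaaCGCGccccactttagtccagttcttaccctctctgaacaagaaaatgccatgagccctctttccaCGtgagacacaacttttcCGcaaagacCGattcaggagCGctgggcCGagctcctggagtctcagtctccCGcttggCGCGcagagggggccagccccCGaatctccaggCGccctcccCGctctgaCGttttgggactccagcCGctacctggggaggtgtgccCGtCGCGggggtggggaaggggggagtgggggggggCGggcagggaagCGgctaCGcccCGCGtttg
*Foxf1a*, lower in KO, chr8:123607986-123608285, plus strand: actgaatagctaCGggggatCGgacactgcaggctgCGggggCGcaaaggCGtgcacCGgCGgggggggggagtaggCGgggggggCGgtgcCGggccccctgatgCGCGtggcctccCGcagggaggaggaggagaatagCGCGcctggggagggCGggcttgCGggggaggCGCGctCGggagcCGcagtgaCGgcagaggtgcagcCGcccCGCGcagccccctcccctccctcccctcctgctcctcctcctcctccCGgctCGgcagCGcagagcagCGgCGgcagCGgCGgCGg
*Foxs1*, lower in KO, chr2:152758945-152759244, minus strand: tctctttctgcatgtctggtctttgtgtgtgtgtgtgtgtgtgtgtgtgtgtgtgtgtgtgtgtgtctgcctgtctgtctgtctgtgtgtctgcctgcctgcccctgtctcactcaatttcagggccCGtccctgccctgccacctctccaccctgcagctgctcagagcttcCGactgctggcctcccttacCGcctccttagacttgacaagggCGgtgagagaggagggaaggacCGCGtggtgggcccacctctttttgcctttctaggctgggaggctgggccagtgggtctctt

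The windows held 14 (*Foxd1*), 23 (*Foxe1*), 33 (*Foxf1a*) and 6 (*Foxs1*) CpG sites, so the 4 genes did not sort by direction. Of the *Foxe1* window 93 bases lie in an exon of *Gm12446* on the opposite strand. The median over the 35 forkhead windows was 20 CpG sites, with a range of 3 to 45, against 10 over the windows of 23386 genes of the table. It was 22 for the 13 higher genes, 27.5 for the 8 lower genes, 23.5 for the 6 that did not pass and 13.5 for the 8 silent ones. The forkhead site TGTTTAC, searched on both strands, was in 2 of 35 forkhead windows (5.71%, *Foxa1* and *Foxo1*) and in 3.25% of all windows, and the variant TATTTAC was in 1 of 35 (2.86%) and in 3.21% of all. None of the 4 windows printed holds either. Methylation at these windows was not analysed here.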

How the data were processed

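RNA-seq of 4 MEF samples, 2 KO and 2 WT by their genotype labels, was analysed. The authors sequenced strand-specific libraries in single reads of 50 bases (CASAVA 1.8.2), aligned them with TopHat2 and Bowtie to mm9 and counted reads per Ensembl gene with HTSeq 0.5.4p3, per the submitters' processing notes and the methods. The deposited raw counts per gene were used, and the deposited normalized values (5 columns) and the authors' DESeq comparison (log2 ratios and p-values) were not. The sources used here do not give the strand setting of HTSeq.

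Counts were scaled by TMM, filtered with filterByExpr (15538 of 23537 genes left) and tested with the quasi-likelihood test of edgeR 4.0.16 in R 4.3.3, with a single term for genotype and p-values adjusted by Benjamini-Hochberg over all genes tested. The SE is the size of the log2 fold change over the root of F, and 95% intervals use the degrees of freedom of the fit. CPM use TMM-scaled library sizes, and RPKM divide them by the summed exon length in GENCODE vM1 on mm9, which holds 23393 of the 23537 identifiers. Floors of 3 counts over a group and exact 95% intervals of count ratios cover counting error only. With 2 samples per genotype the smallest two-sided p of an exact permutation test is 0.333. The test was tried on simulated data in which few genes were changed. It recovered 57 of 67 genes at an absolute log2 fold change of 1, 64 of 67 at 2 and 66 of 66 at 3. There were 16 false calls over 15231 genes. A far larger share of genes was called in the MEFs, so the simulation does not show how the test does there. Alternatives were other scalings and filters, DESeq2 1.42.0, limma-voom (limma 3.58.1), a block for the replicate number, and fits without each library in turn.

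The forkhead genes of the table were named, with up to 4 genes per direction and the most abundant gene of each pathway list, genes starting within 50 kb of a forkhead gene past the limits of the study, and some of the markers of fibroblasts, pericytes, endothelium, epithelium, thyroid, neural progenitors, neural crest, motile cilia and leukocytes. Members and lists were chosen with earlier results of these data known. Some genes that these rules would name are not reported here.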

Additional observations from a re-analysis of the deposited data

How the results depend on the processing

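Over 12 alternatives, the 27 tested forkhead genes gave 321 pairs of gene and alternative, as *Foxe1*, *Foxj1* and *Foxo6* were not tested with at least 10 counts in every library. The side of the threshold was the same in 296, the call was lost in 23 and gained in 2, and 0 called genes changed sign. Genes that did not pass could change sign, such as *Foxa1* (log2 0.12, and -0.25 without KO replicate 2). The number of forkhead genes higher in KO (13) fell most without KO replicate 2, where fewer genes of the whole table passed as higher too. The number past the limits of the study (4) was 2 with at least 10 counts in every library, and it also fell when some of the libraries were left out. FOXM1 targets higher in KO (2) were 1 with RLE size factors, 0 with no filter on low counts, 0 in DESeq2 and 0 to 1 when a library was left out. MuvB and B-Myb genes higher (2) were 4 with library totals, 1 in DESeq2 and 1 to 2 when a library was left out, and those lower (2) were 1 with upper quartile scaling, 1 with library totals and 1 to 2 when a library was left out. The cause was not tested.

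The replicate numbers are shared by name alone, since 2 pairs with a correlation of deviations from the group means of -0.03 do not show that they pair the samples. With the replicate block 13 forkhead genes were higher and 8 lower, as without it. With 2 libraries per genotype the spread of any one gene is estimated mostly from the other genes, and where a library is left out the lone sample of its genotype is assumed to vary like the others. Members with fewer than about 10 reads could not be compared at this depth.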
